A study of Mus musculus with 14 samples.

Results

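The core circadian clock genes were described here in hippocampal RNA of mice labelled LPAR2-/- and of wild-type (WT) mice. They are the 10 genes Arntl, Clock, Npas2, Per1, Per2, Per3, Cry1, Cry2, Nr1d1 and Nr1d2, taken by name from the 24421 genes of the deposited count table. All 10 were among the 14897 genes that passed the filter on low counts. They were selected by name on the measured fold changes between the genotypes of these same mice: the changes of the clock output genes Dbp and Ciart had been seen, and the known genes of the loop were then listed. The fold changes between the genotypes are therefore given as a description and support nothing by themselves. The spread among mice of the same genotype was not used in the choice.

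The RNA came from 14 naive mice, 7 labelled LPAR2-/- and 7 WT, and each mouse gave 1 library. The labels and methods name the hippocampus as the tissue, and the results of the study the dentate gyrus. LPAR2 is a receptor for lysophosphatidic acid, a signalling lipid, and the knockout lacks the later part of exon 2 of Lpar2. All mice were males of the strain labelled 129.C57Bl6, and received no treatment. By the labels the mice were 10 to 12 weeks old, but the design text speaks of middle-aged to aged animals, so the age is not known. Each genotype had its own breeding line, on mixed 129/SvJ and C57BL/6 stock for the controls, so that line and genotype cannot be told apart. The mice lived in a light-dark cycle with light and dark phases of equal length. The hour at which the tissue was taken is not given in the sources used here. Each mouse gave a single sample, so a shift in phase, a change in amplitude and a change in the daily mean cannot be told apart in these data. In whole tissue, fewer cells of a type and less RNA per cell cannot be told apart either.

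Between 15434620 and 23258949 reads were counted on genes per mouse. The targeted gene, Lpar2, had between 144 and 234 counts in the libraries labelled LPAR2-/- and between 27 and 66 in the WT libraries (log2 fold change 2.01, SE 0.157, edgeR adjusted p = 8.22e-07). This is opposite to the loss of a transcript, and counts per gene do not separate the deleted exon, so directions are given for the mice as they are labelled. Markers of hippocampal neurons summed to between 514 and 620 CPM (reads relative to library size) in WT mice and to between 505 and 627 CPM in LPAR2-/- mice. Markers of the suprachiasmatic nucleus, the master clock of the brain, summed to at most 10.2 CPM in any mouse, and Six6 had no count in any library. Markers of choroid plexus summed to 289 CPM in LPAR2-/- mouse 2, against 25.8 to 52.0 CPM in the other 13 mice. In WT mice most of this sum was Kl (mean 26.7 CPM), and Ttr had a mean of 2.77 CPM. Markers of oligodendrocytes summed to 3442 CPM in LPAR2-/- mouse 3, against 842 to 1792 CPM in the other 13 mice. Markers of striatum summed to between 57.7 and 68.2 CPM in WT and to between 67.1 and 77.8 CPM in LPAR2-/- mice, with a median log2 fold change of 0.18. Those of meninges summed to between 46.1 and 267 CPM in WT and to between 63.4 and 359.8 CPM in LPAR2-/- mice, with a median log2 fold change of 1.05. The median was 1.68 for the choroid plexus markers that were tested. None of the markers tested for these tissues, or for thalamus, endothelium, astrocytes and microglia, passed between the genotypes, but low counts left only 2 of 7 markers of the suprachiasmatic nucleus and 4 of 6 of choroid plexus in the test. The part of such tissue in the differences of the clock genes was not tested.

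The clock is a feedback loop of transcription that runs in nearly all cells, including those of the hippocampus. BMAL1, the protein of Arntl, pairs with CLOCK or with its relative NPAS2 and binds E-boxes to switch on Per, Cry and Nr1d genes. PER and CRY proteins then block BMAL1, and the nuclear receptors REV-ERBα (Nr1d1) and REV-ERBβ (Nr1d2) repress Arntl, Npas2 and Clock through ROR elements. Transcripts of Arntl and of the Per and Nr1d genes therefore peak at opposed times of day. D-boxes are bound by the activators DBP, TEF and HLF and by the repressor NFIL3.

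The letters of these elements were searched on both strands in the promoter windows of RefSeq (GRCm38.p6, the assembly of mm10), which run from 250 bases before to 50 bases after a start site. Windows were found for 9 of the 10 genes, all except Per2. The stretches with a match are printed 5′ to 3′ on the strand of the gene, since they show the clock elements named above, with the matching letters in capitals. The E-box CACGTG stood 166 bases before the start of Per1 and 60 bases before that of Cry1. The variant CACGTT, which reads AACGTG on the opposite strand, stood before the starts of Cry1, Cry2 and Nr1d1, and 2 D-boxes with the letters TTATGTAA stood before that of Per3. The first stretch of Per1 lies at chr11:69098763-69098808 (+) and the second, with the D-box variant TTATGCAA, at chr11:69098914-69098943 (+). The stretch of Per3 lies at chr4:151044796-151044890 (-), that of Cry1 at chr10:85185089-85185153 (-), that of Cry2 at chr2:92434210-92434255 (-) and that of Nr1d1 at chr11:98775380-98775425 (-). None of these 6 stretches overlaps an annotated exon. The ROR element core TAGGTCA stood 30 bases after a start of Arntl, within the first exon, at chr7:113207530-113207558 (+).
Per1, E-box: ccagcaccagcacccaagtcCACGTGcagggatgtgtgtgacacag
Per1, D-box variant: agggcctggcaTTATGCAAcccgcctccca
Per3, both D-boxes: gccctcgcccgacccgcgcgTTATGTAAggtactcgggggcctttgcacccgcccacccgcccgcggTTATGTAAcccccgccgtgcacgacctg
Cry1, E-box variant and E-box: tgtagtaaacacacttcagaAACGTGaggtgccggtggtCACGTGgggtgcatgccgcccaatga
Cry2, E-box variant: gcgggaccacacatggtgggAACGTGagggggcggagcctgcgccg
Nr1d1, E-box variant: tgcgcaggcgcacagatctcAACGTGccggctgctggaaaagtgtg
Arntl, ROR element core: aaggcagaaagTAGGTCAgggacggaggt
Of all 32851 promoter windows, 7.15% hold CACGTG, 4.68% CACGTT, 0.938% TTATGTAA, 0.743% TTATGCAA and 2.61% TAGGTCA. The cyclic AMP response element TGACGTCA, held by 1.79% of the windows, had no match in the windows of the clock genes. The windows of Clock, Npas2 and Nr1d2 held none of the 6 sets of letters. A match is a description of these letters and not of a bound site.

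Of the 10 genes, 2 were lower (Arntl and Clock) and 2 were higher (Cry2 and Nr1d2) in LPAR2-/- mice at an edgeR adjusted p under 0.05. Over all genes tested, 6.77% were called in either direction, 3.46% lower and 3.32% higher. These were 515 genes lower and 494 higher, which became 377 and 616 with upper-quartile scaling in place of TMM. The fitted log2 fold change was below 0 for the 3 activators and above 0 for the 7 Per, Cry and Nr1d genes. These counts describe genes chosen with this contrast in view, so nothing is read from them. The median log2 fold change was 0.09 over the 10 genes and 0.0029 over all genes tested. The changes that passed were small, from a level 24.2% lower to one 15.5% higher.

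**Figure D1:**
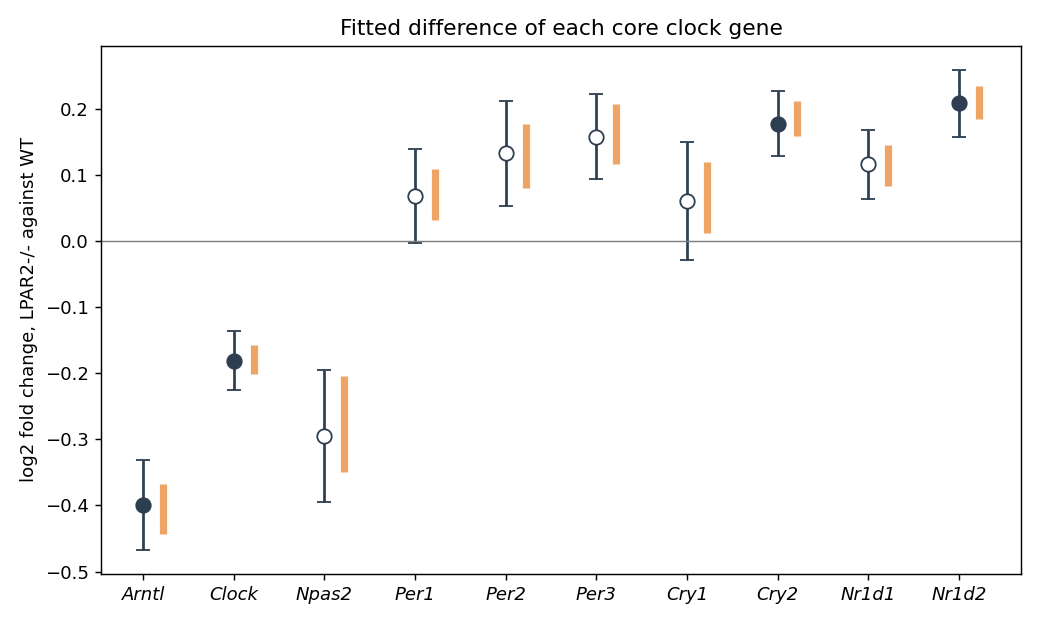
Fitted log2 fold change (y axis) of each core clock gene (x axis), LPAR2-/- against WT, 7 mice each. Points show the fitted value with bars of ±1 SE, filled where the adjusted p was under 0.05, and orange bars show the range over 14 fits, each without a different mouse. Arntl, Clock and Npas2 lie below 0, from -0.40 to -0.18, and the other genes lie above 0, from 0.06 to 0.21.

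Arntl (chr7:113207465-113314126, + strand, mm10) encodes BMAL1, which pairs with CLOCK or NPAS2 in the activating complex. In WT mice its level was lowest at 40.0, with a median of 43.1 and a highest value of 45.5 CPM. In LPAR2-/- mice it was lowest at 28.4, with a median of 30.6 and a highest value of 38.8 CPM. Every LPAR2-/- mouse lay below every WT mouse, which held for 1.77% of all genes tested in one direction or the other and for no other core clock gene. The mean was 32.7 ± 4.11 CPM in LPAR2-/- and 43.1 ± 2.34 CPM in WT mice (SD, n = 7), and the gene fell by 0.40 on the log2 scale (SE 0.0681, edgeR adjusted p = 0.00281). LPAR2-/- mice 6 and 7 had the highest Arntl of their group, 37.3 and 38.8 CPM, and mouse 1 had 34.3 CPM. The other 4 mice lay between 28.4 and 30.6 CPM. With LPAR2-/- mice 2 and 3 left out, the choice being made after their markers of choroid plexus and oligodendrocytes had been seen, Arntl still fell by 0.33 (edgeR adjusted p = 0.00909).

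Clock (chr5:76209868-76304792, - strand) encodes the usual partner of BMAL1. WT mice had between 80.3 and 90.5 CPM, with a median of 86.3. LPAR2-/- mice had between 68.7 and 81.6 CPM, with a median of 74.2. All 7 LPAR2-/- mice lay below the WT median, but mice 6 and 7, again the highest of their group, reached the range of WT mice. Clock fell by 0.18 on the log2 scale (SE 0.0446, edgeR adjusted p = 0.0238). The call depended on single mice: the edgeR adjusted p was 0.0511 without LPAR2-/- mouse 1, 0.0578 without WT mouse 2, 0.0525 without WT mouse 4 and 0.0504 without WT mouse 6. It was 0.0668 without LPAR2-/- mice 2 and 3, with a log2 fold change of -0.16.

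Npas2 (chr1:39194272-39363240, + strand) encodes a relative of CLOCK that is abundant in the forebrain and can take its place. Its level was between 14.5 and 25.6 CPM in WT mice (median 18.96) and between 13.7 and 17.5 CPM in LPAR2-/- mice (median 15.5). WT mouse 2 was the highest and WT mouse 1 the lowest of the WT group. The log2 fold change was -0.29 (SE 0.0994, edgeR adjusted p = 0.0883), so that Npas2 did not pass the test. Without WT mouse 1 the edgeR adjusted p was 0.0255, and without WT mouse 2 it was 0.162, with a log2 fold change of -0.20.

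The Period genes encode the PER repressors, and transcripts of Per1 and Per2 also respond quickly to neuronal activity. Per1 (chr11:69098956-69109957, + strand) had between 86.6 and 119.6 CPM in WT mice (median 107) and between 97.0 and 114 CPM in LPAR2-/- mice (median 109.8). Per2 (chr1:91415982-91459328, - strand) had between 47.5 and 72.0 CPM in WT mice (median 65.1) and between 61.4 and 69.8 CPM in LPAR2-/- mice (median 67.8). Per3 (chr4:151003655-151044665, - strand) had between 78.0 and 112.7 CPM in WT mice (median 93.4) and between 99.4 and 111 CPM in LPAR2-/- mice (median 104). For each Period gene the range of LPAR2-/- mice lay within that of WT mice. The log2 fold changes were 0.07 for Per1 (SE 0.0708, edgeR adjusted p = 0.614), 0.13 for Per2 (SE 0.0798, edgeR adjusted p = 0.350) and 0.16 for Per3 (SE 0.0645, edgeR adjusted p = 0.157). Over the fits without a single mouse they ran from 0.03 to 0.11 for Per1, from 0.08 to 0.18 for Per2 and from 0.12 to 0.21 for Per3, with the lowest values of Per1 and Per2 without WT mouse 7. None passed the test, although all 7 LPAR2-/- mice had more Per3 than the WT median. Without WT mouse 4, which had the highest Per3 of all mice, the edgeR adjusted p of Per3 was 0.0455.

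The Cryptochromes are the partners of the PER proteins. Cry1 (chr10:85131700-85185054, - strand) had between 14.4 and 17.8 CPM in WT mice (median 16.2) and between 12.3 and 19.8 CPM in LPAR2-/- mice (median 17.4). LPAR2-/- mouse 6 was the lowest and mouse 1 the highest of all mice, and the log2 fold change was 0.06 (SE 0.0894, edgeR adjusted p = 0.742). It was 0.01 without mouse 1 and 0.12 without mouse 6. Cry2 (chr2:92403647-92434069, - strand) had between 166 and 206 CPM in WT mice (median 175) and between 192 and 219 CPM in LPAR2-/- mice (median 199.9). Of the WT mice, 6 lay below all LPAR2-/- mice, and WT mouse 1 lay among them. Cry2 rose by 0.18 on the log2 scale (SE 0.0493, edgeR adjusted p = 0.0400). The call was kept in only 4 of the 14 fits without a single mouse, and in all 8 other alternatives. The edgeR adjusted p was 0.0881, 0.0783, 0.0530, 0.0655 and 0.0523 without LPAR2-/- mouse 1, 2, 4, 6 and 7, in this order, and 0.0666 without mice 2 and 3 together, where the log2 fold change was 0.17. It was 0.0925, 0.0803, 0.0813, 0.0856 and 0.0636 without WT mouse 2, 3, 4, 5 and 6, in this order. An exon of D930015M05Rik overlaps Cry2 on the opposite strand, and the counting was strand-specific.

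The Nr1d genes encode the REV-ERB receptors, which sense heme and repress Arntl. Nr1d1 (chr11:98767932-98775377, - strand) had between 183 and 212 CPM in WT mice (median 206) and between 192 and 248 CPM in LPAR2-/- mice (median 216). Of the LPAR2-/- mice, 5 lay above all WT mice and LPAR2-/- mouse 3 lay in the lower part of the WT range. The log2 fold change was 0.12 (SE 0.0523, edgeR adjusted p = 0.199) and did not pass the test. Nr1d2 (chr14:18204056-18239106, - strand) had between 83.6 and 99.4 CPM in WT mice (median 94.3) and between 95.3 and 117 CPM in LPAR2-/- mice (median 104). Of the LPAR2-/- mice, 6 lay above all WT mice, and the exception was mouse 3. Nr1d2 rose by 0.21 on the log2 scale (SE 0.0506, edgeR adjusted p = 0.0224) and kept its call in each of the 14 fits without 1 mouse (highest adjusted p 0.0476) and without LPAR2-/- mice 2 and 3 (0.0126).

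**Figure D2:**
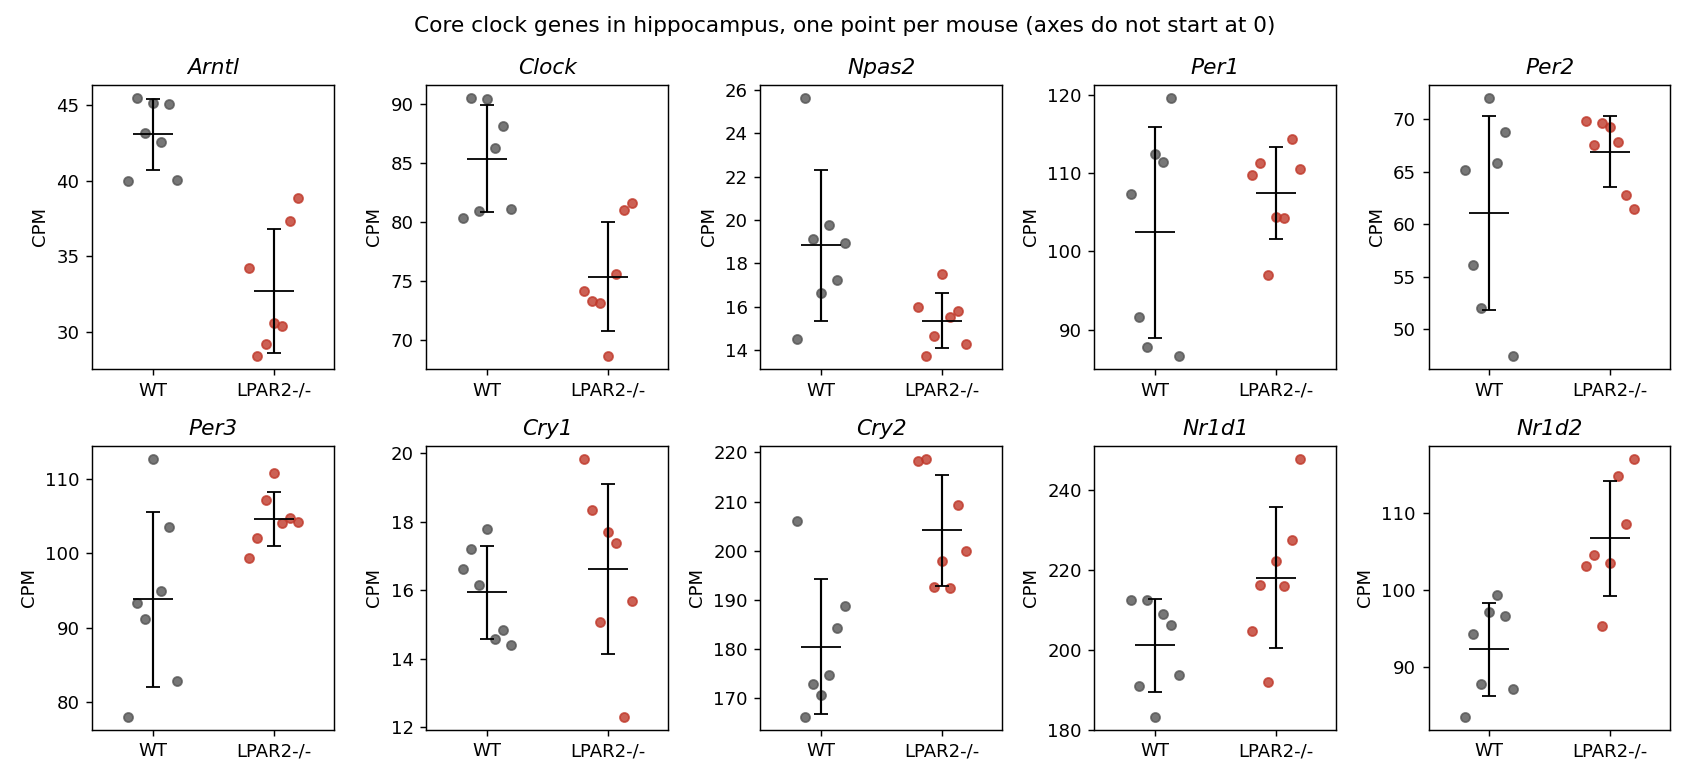
Level in CPM (y axes, which do not start at 0) of each core clock gene in each mouse, WT in grey and LPAR2-/- in red, with the mean and bars of ±1 SD (n = 7). The genotypes are apart only for Arntl, with WT mice from 40.0 to 45.5 and LPAR2-/- mice from 28.4 to 38.8 CPM.

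Levels of different genes were compared as CPM per kilobase of exon. Nr1d1 had the highest level in WT mice, 72.7 ± 4.22 CPM per kb (SD, n = 7), followed by Cry2 with 45.1 ± 3.42. Per1 (21.8 ± 2.86), Nr1d2 (19.9 ± 1.30), Per3 (15.5 ± 1.94) and Arntl (14.8 ± 0.806) followed, each with a range that overlapped that of its neighbour in this order. Per2 (10.5 ± 1.58) and Clock (8.60 ± 0.456) overlapped with each other, as did Cry1 (5.29 ± 0.451) and Npas2 (4.51 ± 0.835) at the lower end. The ranges of Nr1d1 and Cry2, of Cry2 and Per1, of Arntl and Per2, and of Clock and Cry1 were apart. In LPAR2-/- mice the mean of Arntl, 11.3 ± 1.41 CPM per kb, was slightly below that of Per2, 11.5 ± 0.580, and that of Nr1d2, 23.0 ± 1.61, was slightly above that of Per1, 22.9 ± 1.25.

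**Figure D3:**
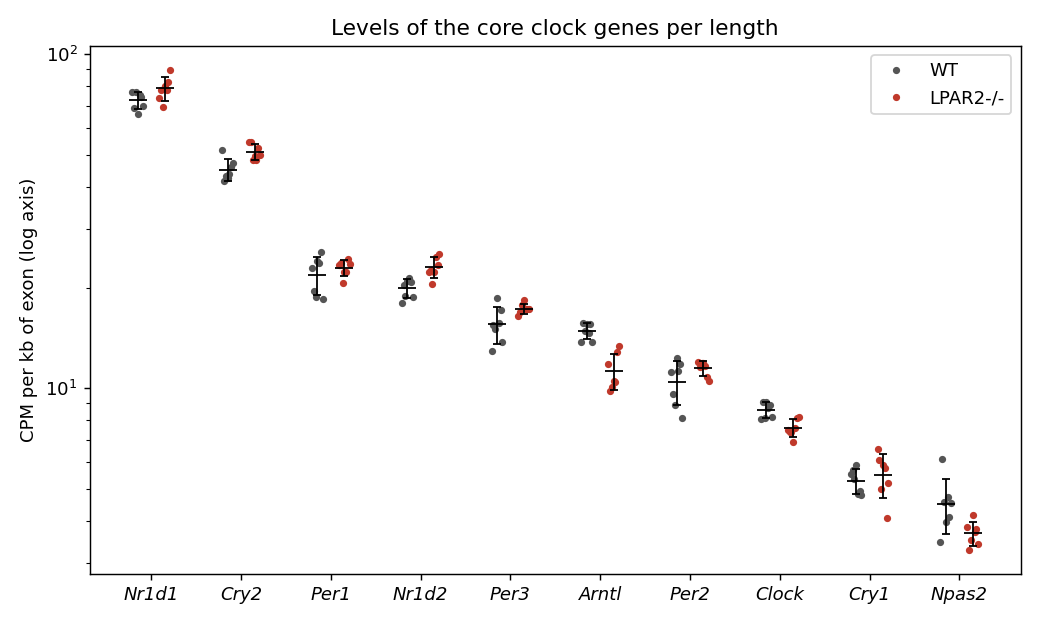
Level of each core clock gene in CPM per kb of exon (y axis, log scale), genes ordered by their WT mean, 1 point per mouse with the mean and bars of ±1 SD (n = 7; WT grey, LPAR2-/- red). Levels in WT mice ran from 4.51 for Npas2 to 72.7 for Nr1d1.

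Ratios of 2 clock genes within a library do not depend on how libraries are scaled. The pairs were chosen after the values had been seen, and most set a gene with a fitted value below 0 over one above 0, so that the ratios of counts are a description and nothing is read from how many are apart. The counts of Arntl over those of Nr1d1 ran from 0.188 to 0.246 in WT and from 0.132 to 0.167 in LPAR2-/- mice. The ratio of Arntl to Nr1d2 ran from 0.428 to 0.491 in WT and from 0.265 to 0.344 in LPAR2-/- mice, although the ranges of Nr1d2 alone overlap. The ratio of Clock to Nr1d2 ran from 0.868 to 0.961 and from 0.659 to 0.767, respectively. The ratio of Arntl to Clock was also apart, from 0.493 to 0.533 in WT and from 0.388 to 0.476 in LPAR2-/- mice, so that Arntl was lower relative to its partner. The ratio of Per1 to Per2 overlapped widely, from 1.56 to 1.82 in WT and from 1.39 to 1.82 in LPAR2-/- mice. The ratios of Arntl to Per2, of Arntl to Cry2 and of Clock to Cry2 also overlapped. Their lowest WT values were 0.614, 0.1940 and 0.390, and their highest LPAR2-/- values 0.632, 0.1944 and 0.408, in this order. Of the 10 ratios computed, 6 were apart.

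**Figure D4:**
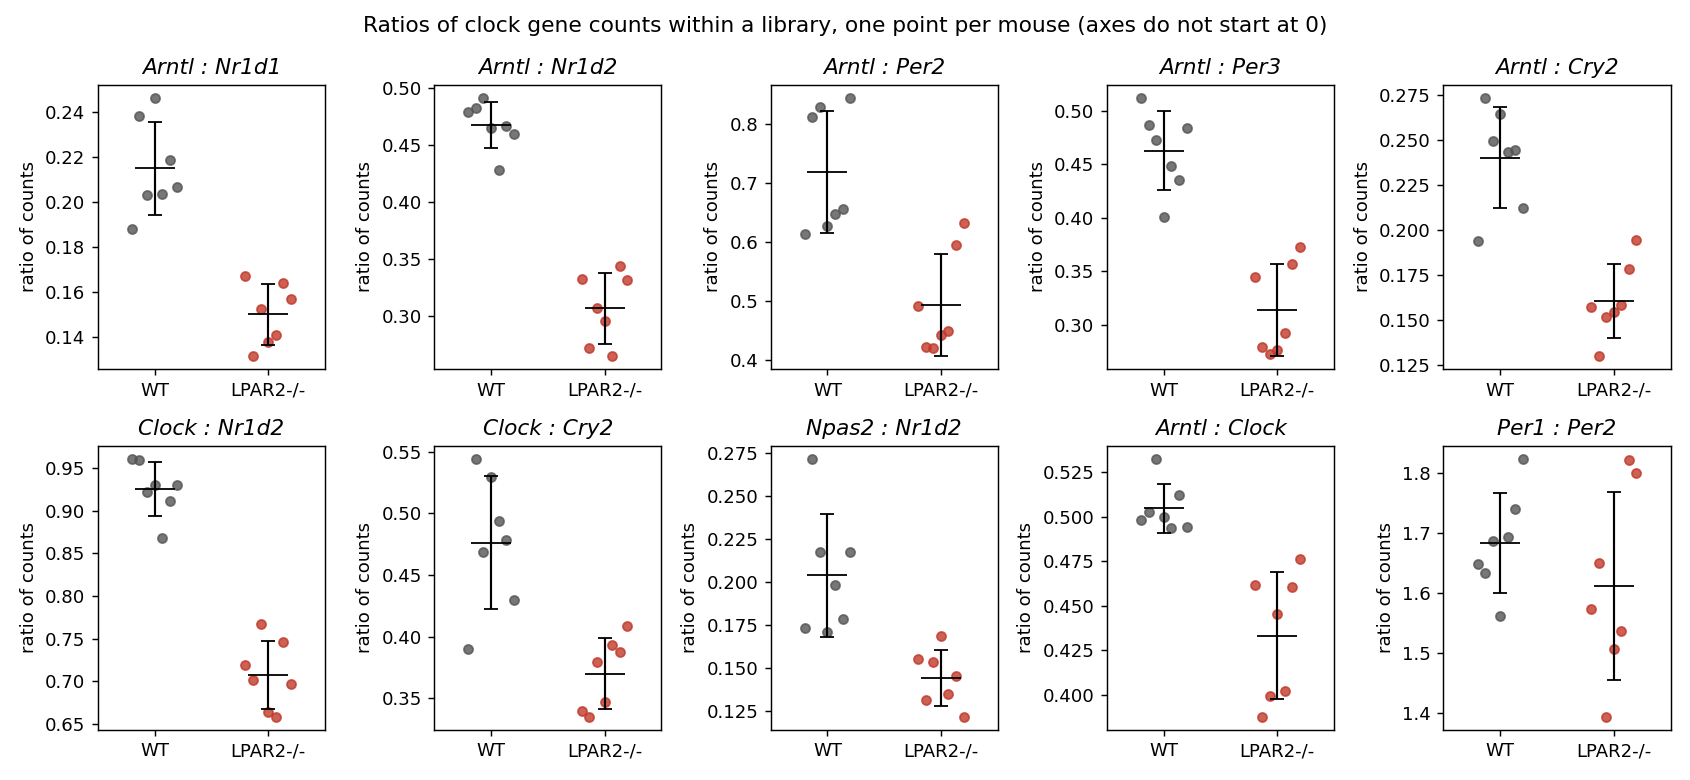
Ratio of the counts of 2 clock genes in the same library (y axes, which do not start at 0), 1 point per mouse with the mean and bars of ±1 SD (n = 7; WT grey, LPAR2-/- red). The genotypes are apart in the ratio of Arntl to Nr1d2, for example, and overlap in that of Per1 to Per2.

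The spread among mice of the same genotype differed from gene to gene. On the log2 CPM scale, the SD of the Period genes was 0.192 (Per1), 0.225 (Per2) and 0.180 (Per3) in WT mice, and 0.0803, 0.0744 and 0.0495 in LPAR2-/- mice. Npas2 and Cry2 also had the larger SD in WT mice. The SD was larger in LPAR2-/- mice for the other 5 genes, among them Arntl with 0.177 against 0.0791 and Cry1 with 0.227 against 0.122, while Nr1d1, Clock and Nr1d2 differed less (0.116 against 0.0848, 0.0875 against 0.0765 and 0.101 against 0.0954). These differences in spread were not tested. Among genes of a similar level (within 0.5 on the log2 scale), the SD within genotypes, pooled over both, stood at percentile 87.3 for Per2, 85.5 for Per1, 80.5 for Per3 and 80.1 for Npas2, and at 41.7 for Clock.

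Pairs of genes were compared across mice of the same genotype, in 20 relations, with exact permutation tests (two-sided) that ran through every pairing of the mice. Per1 and Per2 varied together in WT mice (r = 0.954, exact p = 0.00218, adjusted p = 0.0437; rho = 0.964, exact p = 0.00278, adjusted p = 0.0556; n = 7). WT mice 2, 3 and 7 had both genes low, with Per2 at 56.1, 52.0 and 47.5 CPM, and the other 4 WT mice had between 65.1 and 72.0 CPM. These mice stand apart, and how far the relation rests on this gap was not tested. Without WT mice 3 and 7, the farthest from the median of Per1, r was 0.914 with n = 5 (exact p = 0.0583). WT mouse 2 was still included there. In LPAR2-/- mice, whose Per1 and Per2 spread less, r was -0.617 (exact p = 0.148, adjusted p = 0.370; rho = -0.643). Whether the relation differs between the genotypes was not tested.

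No other relation passed after adjustment. Arntl and Clock had r = 0.877 in WT mice (exact p = 0.0151, adjusted p = 0.151; rho = 0.893; n = 7) and 0.795 in LPAR2-/- mice (exact p = 0.0359, adjusted p = 0.167; rho = 0.679). Without LPAR2-/- mice 6 and 7, which are high in both genes, the latter was 0.117, so it rests on these mice. Nr1d1 and Nr1d2 had r = 0.826 in LPAR2-/- mice (exact p = 0.0254, adjusted p = 0.167; rho = 0.750) and -0.340 in WT mice (exact p = 0.438). Without LPAR2-/- mice 3 and 7, the lowest and the highest in Nr1d1, the former was 0.250. Arntl and Per2 had r = -0.790 in LPAR2-/- mice (exact p = 0.0419, adjusted p = 0.167; rho = -0.393) and 0.578 without mice 6 and 7, so its sign rests on them. Arntl and its repressor Nr1d1 had r = -0.403 in WT mice (exact p = 0.342) and 0.664 in LPAR2-/- mice (exact p = 0.103). The former was -0.738 without WT mice 1 and 7. The latter was -0.0639 without LPAR2-/- mice 6 and 7, so its sign rests on them. Before adjustment, 5 of the 20 relations had an exact p under 0.05 by r and 4 by rho.

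**Figure D5:**
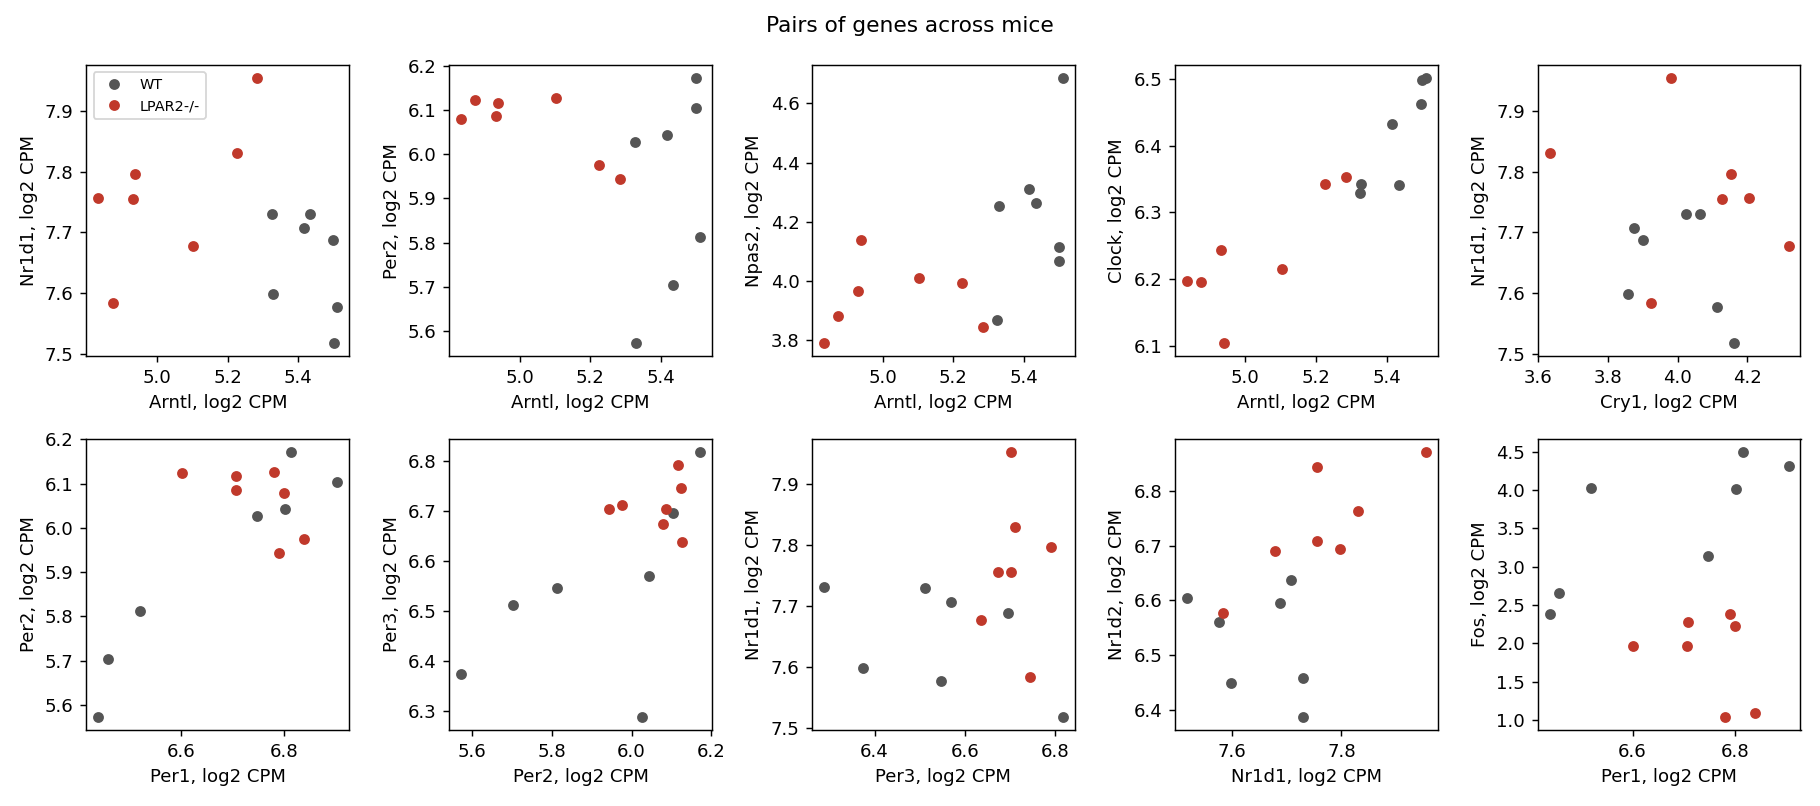
Levels of 10 pairs of genes across mice (both axes in log2 CPM), 1 point per mouse, WT in grey and LPAR2-/- in red (n = 7 each). In the panel of Per1 and Per2 the WT mice form a rising band (r = 0.954), and the LPAR2-/- mice lie within a narrower range (r = -0.617).

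Per1 was also compared with Fos, a gene that neuronal activity switches on within minutes. Fos had between 5.13 and 22.6 CPM in WT mice and between 1.95 and 5.12 CPM in LPAR2-/- mice. In WT mice Per1 and Fos had r = 0.759 (exact p = 0.0647, adjusted p = 0.216; rho = 0.857, exact p = 0.0238, adjusted p = 0.159), and r was 0.262 without WT mice 3 and 7. In LPAR2-/- mice r was -0.345 (exact p = 0.456). Every LPAR2-/- mouse lay below every WT mouse in Fos, which held for 1.77% of all genes tested in one direction or the other. The nearest values were 5.12 CPM (80 counts) in LPAR2-/- mouse 7 and 5.13 CPM (88 counts) in WT mouse 7. The order of these 2 mice depends on how the libraries are scaled, so nothing is read from it. The ranges of Per1 overlapped.

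Over all 14 mice, after removal of the genotype means, the tested genes most like Arntl were Cdc23 (r = 0.938), Sh3kbp1, Usp27x, Ctcf and Cep152 (0.904), and the most opposed were Pcmt1 (-0.926), Pvrl3, Syt12, Cldn2 and Lztr1 (-0.904). Clock stood at place 220 of 14896 for Arntl (r = 0.782). Those most like Per2 were Fcgr1 (r = 0.882), Arl5b, Nr4a1 (0.855), Egr1 (0.842) and Rrp8, where Nr4a1 and Egr1 are early genes of neuronal activity, and the most opposed were Rps3a1 (-0.885), Paxip1, Zfp358, Chac1 and Mrpl9. Per1 stood at place 14 for Per2 (r = 0.761) and Per3 at place 264 (r = 0.528). Those most like Nr1d1 were 9530027J09Rik (r = 0.915), Fam57b, Smarcb1, Rps4x and Pinx1, and the most opposed were Erc1 (-0.937), Gon4l, Pram1, Sipa1l1 and Cds2. These r values are the extremes of 14896 genes over 14 mice and share depth and library composition, so they carry no p.

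Of 22 output and accessory genes of the clock, 3 were higher and 1 was lower in LPAR2-/- mice, against the 3.32% and 3.46% of all genes. Dbp, the D-box activator driven by BMAL1, rose by 0.90 on the log2 scale (69.4 ± 8.82 against 37.2 ± 6.13 CPM, SD, n = 7; edgeR adjusted p = 0.000133), Ciart, a repressor of the loop, by 0.87 (edgeR adjusted p = 0.000132) and Usp2, a deubiquitinase with rhythmic expression, by 0.33 (edgeR adjusted p = 0.0155). Nfil3, the D-box repressor, fell by 0.56 (edgeR adjusted p = 0.0142). The changes of Dbp and Ciart were known when the core genes were chosen and are not independent of them. Both are among the 3 higher genes of this list, so nothing is read from its counts.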

How the data were processed

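Total RNA from 14 mice was sequenced. The authors used cutadapt 1.18 for trimming, STAR for alignment to mm10, and featureCounts 1.6.3 to count reverse-strand reads on exons. The deposited counts are raw reads per gene and were used as they are. A second deposited table of normalized values, whose decimal points are lost in part, was not used. Genotypes came from the labels.

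Counts were analysed in R 4.3.3 with edgeR 4.0.16 (filterByExpr, TMM, robust quasi-likelihood test, Benjamini-Hochberg over 14897 genes, threshold 0.05). The SE of an edgeR log2 fold change is its absolute value over the square root of the F statistic of that test. Levels are CPM, and for log2 values a prior count of 2 was added. All 10 core clock genes, Lpar2, Fos, called genes of the accessory list and 5 genes at each end of likeness to Arntl, Per2 and Nr1d1 are named. Members and lists were chosen with earlier results of these data known. Alternatives were DESeq2 1.42.0, limma 3.58.1, other scalings and filters, a replicate block and leaving out mice. The fits were tested on simulated data. Within a genotype, no library was a copy of another (chi-square over degrees of freedom at least 3.35 in 42 pairs). Promoter sequences are from RefSeq.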

Additional observations from a re-analysis of the deposited data

How the results depend on the processing

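No fitted direction of the 10 clock genes reversed in any of the 230 fold changes from alternatives, and 211 of them stayed on their side of the threshold. Arntl and Nr1d2 passed in all 8 alternatives of test, scaling, filter and block and in all 14 fits without 1 mouse. Without 1 mouse, between 1 and 3 clock genes passed as lower and between 1 and 2 as higher, against 2 and 2, and between 292 and 725 of all genes passed as lower and between 275 and 660 as higher, against 515 and 494. DESeq2 called 717 lower and 671 higher. Without LPAR2-/- mice 2 and 3 (chosen after seeing the data), 1 clock gene passed as lower and 1 as higher. The labels do not say that mice of the same number belong together. Correlations of same-numbered mice ran from -0.334 to 0.311, 3 of 7 were above 0.1, and 5 of 14 mice were most like their own number. Whether mice of the same number shared a batch was not tested. With the number as a replicate block, 1 clock gene passed as lower (Arntl; Clock had an edgeR adjusted p of 0.0670, and Nfil3 of the accessory list one of 0.0589), with 272 of all genes lower and 314 higher.

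Of 60 correlations from alternatives, 54 kept their sign. The exceptions were Per3 and Nr1d1 in LPAR2-/- mice (r = -0.0359 with DESeq2 size factors, -0.508 without the 2 farthest mice) and, without the 2 farthest mice, Per3 and Nr1d1 in WT (0.429), Nr1d1 and Nr1d2 in WT (0.0258), and in LPAR2-/- mice Arntl and Nr1d1 (-0.0639) and Arntl and Per2 (0.578). Without these mice 0 relations passed, against 1, as 5 mice were left per genotype. The cause of other shifts was not tested.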
